A study of Mus musculus with 6 samples.

Results

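Colony-stimulating factor 1 and interleukin-34 are the ligands of 1 receptor, CSF1R, a tyrosine kinase on which macrophages depend for survival and growth. The measurements below cover 7 genes of this signalling in dorsal root ganglia (DRGs): the ligands *Csf1* and *Il34*, the receptor *Csf1r*, the membrane adaptors *Tyrobp* (DAP12) and *Hcst* (DAP10), and *Csf2ra* and *Csf2rb*, the chains of the receptor for GM-CSF. They were taken by symbol from the table of read counts, where each had 1 row among 48440, and all 7 were among the 18593 genes that passed the filter on low counts. Sensory neurons are known to make CSF1 after injury of their axons, and CSF1 then acts on macrophages in the ganglion and on microglia in the spinal cord. IL-34 is known mainly as a product of keratinocytes and neurons. TYROBP carries an activation motif for receptors that lack one of their own, and HCST does the same through a PI3-kinase motif.

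The DRGs came from male wild-type mice. Those of 3 libraries were microinjected at L3/4 on one side with AAV5-*Gfp*, an adeno-associated virus encoding the fluorescent protein GFP. The DRGs of the remaining 3 libraries received AAV5-*V1+V2*, a mixture of the viruses for variants V1 and V2 of *NIS-lncRNA*, a noncoding RNA that the study linked to neuropathic pain. Tissue was collected 5 weeks after microinjection by the design text, which also gives 4 weeks for the comparison. The study names CD1 mice for microinjection of the V1 or V2 virus, without naming the sequenced libraries. Age, the promoter in the viruses and the number of mice behind each library are not given in the sources used here, so that p-values measure the spread between these libraries, which may be technical. Each group received its own virus preparation, and the transcripts and the preparation cannot be told apart.

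Total counts were 32025612 to 34764282 per library. Sensory neuron markers such as *Tubb3* and *Nefl* were abundant in all 6 libraries. Skeletal muscle markers varied widely, with a summed level of 15.7 to 314 CPM (read counts scaled by library size after TMM normalization) in AAV5-*Gfp* and 6.18 to 90.1 CPM in AAV5-*V1+V2*. AAV5-*V1+V2* replicate 1 stood apart by the chi-square per degree of freedom between libraries, taken over genes above a minimum of reads in each pair. The value was 32.2 and 48.9 against the other libraries of its group. These differed from each other by 9.39, and the controls by 8.27 to 13.9. Replicate 1 of AAV5-*V1+V2* also had the lowest *Tubb3*, 768 CPM against 1233 to 1510 CPM in the other libraries. Its *Nefl* was likewise the lowest, 1366 CPM against 1921 to 2285 CPM. The overexpressed transcript was not checked from these counts. Values of a group are listed in the order of replicates 1, 2, and 3, and adjusted p-values without another source are those of the edgeR test, named edgeR for short.

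Compared with AAV5-*Gfp*, 6 of the 7 genes were higher in AAV5-*V1+V2* and 0 were lower (quasi-likelihood test of edgeR, adjusted p under 0.05), where 10.1% of all genes tested were higher and 5.27% were lower. The increase was about 1.5-fold for *Csf1*, 2.85-fold for *Csf1r*, and above 4-fold for *Tyrobp*, *Hcst* and *Csf2rb*. *Il34* did not pass. In the same 6 genes the lowest AAV5-*V1+V2* library lay above the highest AAV5-*Gfp* library, as it did for 23.4% of all genes tested.

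**Figure D1:**
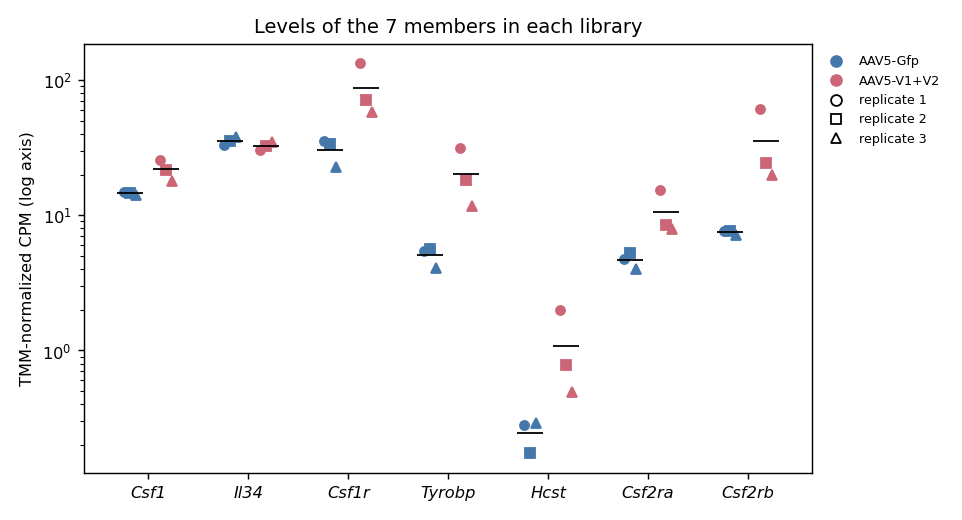
TMM-normalized CPM (log axis) of the 7 genes in each library, with a symbol for each replicate and a line at the mean of each group (n = 3). AAV5-*V1+V2* replicate 1 is the highest library and replicate 3 the lowest of its group for 6 genes, and the groups overlap for *Il34* alone.

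*Csf1*, the ligand released by injured sensory neurons, occupies bases 107741048 to 107760469 of chromosome 3 (GRCm38, as for all positions here, minus strand, ENSMUSG00000014599.10). Its level was 14.9, 14.5, and 14.2 CPM with AAV5-*Gfp*, against 25.8, 21.6, and 18.02 CPM with AAV5-*V1+V2*. The controls lay close together, and every AAV5-*V1+V2* library was above them. The log2 fold change was 0.58 (SE, or standard error, 0.13, 95% confidence interval 0.28 to 0.89, adjusted p = 0.0301 by edgeR), from a mean of 14.5 ± 0.370 CPM (SD, n = 3) to 21.8 ± 3.88 CPM (SD, n = 3). This was the smallest rise among the 6 genes, and 11.7% of all genes tested had a larger log2 fold change.

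*Il34*, the second ligand, lies on chromosome 8 from 110741829 to 110805924 on the minus strand (ENSMUSG00000031750.15). It was measured at 33.3, 35.5, and 37.97 CPM with AAV5-*Gfp*, against 30.6, 32.4, and 34.7 CPM with AAV5-*V1+V2*. The groups overlapped, and the AAV5-*V1+V2* library with the highest *Csf1* had the lowest *Il34*. On the log2 scale the difference was -0.13 (SE 0.08, adjusted p = 0.301 by edgeR). Its 95% confidence interval, from -0.32 to 0.06, corresponds to 0.803-fold to 1.04-fold, which does not reach the lower end of the interval for *Csf1*, 1.21-fold.

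*Csf1r*, the receptor of both ligands, lies on chromosome 18 from 61100598 to 61132149 on the plus strand (ENSMUSG00000024621.16). The AAV5-*Gfp* libraries had 35.2, 33.7, and 22.6 CPM, and the AAV5-*V1+V2* libraries had 132.6, 70.7, and 57.6 CPM. AAV5-*Gfp* replicate 3 was low and AAV5-*V1+V2* replicate 1 high against the other libraries of their groups, without overlap between the groups. On the log2 scale the difference was 1.51 (SE 0.32, 95% confidence interval 0.76 to 2.26, adjusted p = 0.0271 by edgeR), or 2.85-fold. In bulk tissue, more macrophages and more *Csf1r* RNA in each macrophage cannot be told apart, and this holds for each gene below as well.

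*Tyrobp* and *Hcst*, the adaptors, are neighbours on chromosome 7. *Tyrobp* (ENSMUSG00000030579.10) runs from 30413760 to 30417585 on the plus strand, and *Hcst* (ENSMUSG00000064109.8) from 30417712 to 30419854 on the minus strand. Their 3′ ends face each other across 126 bases, and the use of strand in the counting is not given in the sources used here, so that reads from beyond the end of one gene could be counted on the other.

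*Tyrobp* had 5.42, 5.66, and 4.07 CPM with AAV5-*Gfp*, against 31.2, 18.1, and 11.7 CPM with AAV5-*V1+V2*. The lowest AAV5-*V1+V2* library was above every control. On the log2 scale the difference was 2.01 (SE 0.35, adjusted p = 0.0172 by edgeR), or 4.02-fold with a 95% confidence interval of 2.29 to 7.06.

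*Hcst* was the scarcest of the 7 genes, with 9, 6, and 9 reads with AAV5-*Gfp*, against 65, 26, and 17 reads with AAV5-*V1+V2*. The groups did not overlap, but AAV5-*V1+V2* replicate 3 lay nearer to the controls than to replicate 1. Its log2 fold change of 2.12 had the largest standard error of the 7 (0.58), and it passed narrowly (adjusted p = 0.0489 by edgeR). The 95% confidence interval ran from 1.70-fold to 11.2-fold.

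GM-CSF signals through a chain that binds it and a chain that carries the signal. *Csf2ra*, the binding chain, lies on chromosome 19 from 61223957 to 61228429 on the minus strand (ENSMUSG00000059326.7). Its level was 4.77, 5.28, and 4.04 CPM with AAV5-*Gfp*, against 15.5, 8.41, and 7.87 CPM with AAV5-*V1+V2*. AAV5-*V1+V2* replicates 2 and 3 were close together and replicate 1 was well above them. On the log2 scale the difference was 1.17 (SE 0.27, 95% confidence interval 0.53 to 1.81, adjusted p = 0.0334 by edgeR).

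*Csf2rb*, the signalling chain that the receptors of GM-CSF, IL-3 and IL-5 share, lies on chromosome 15 from 78325752 to 78353847 on the plus strand (ENSMUSG00000071713.6). It was measured at 7.59, 7.70, and 7.18 CPM with AAV5-*Gfp*, against 61.3, 24.3, and 19.8 CPM with AAV5-*V1+V2*. The controls were tightly grouped, and the AAV5-*V1+V2* libraries were all above them and widely spread. *Csf2rb* had the largest log2 fold change of the 7 genes (2.23; SE 0.42, adjusted p = 0.0199 by edgeR), or 4.69-fold with a 95% confidence interval of 2.39 to 9.19. Its paralog *Csf2rb2*, a chain of the IL-3 receptor in the mouse, lies 20030 bases away, and 12.3% of the 50-base windows in *Csf2rb* transcripts of GENCODE M21 occur unchanged in *Csf2rb2*, where no window of the other 6 genes occurs in another gene. Reads from those windows may have been split between both genes. *Csf2rb2* itself had 115, 111, and 86 reads with AAV5-*Gfp*, against 759, 284, and 283 reads with AAV5-*V1+V2*, with a log2 difference of 2.06 (SE 0.42, adjusted p = 0.0239 by edgeR). With the counts of both genes summed, a choice made after the data were seen, the log2 fold change was 2.18.

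**Figure D2:**
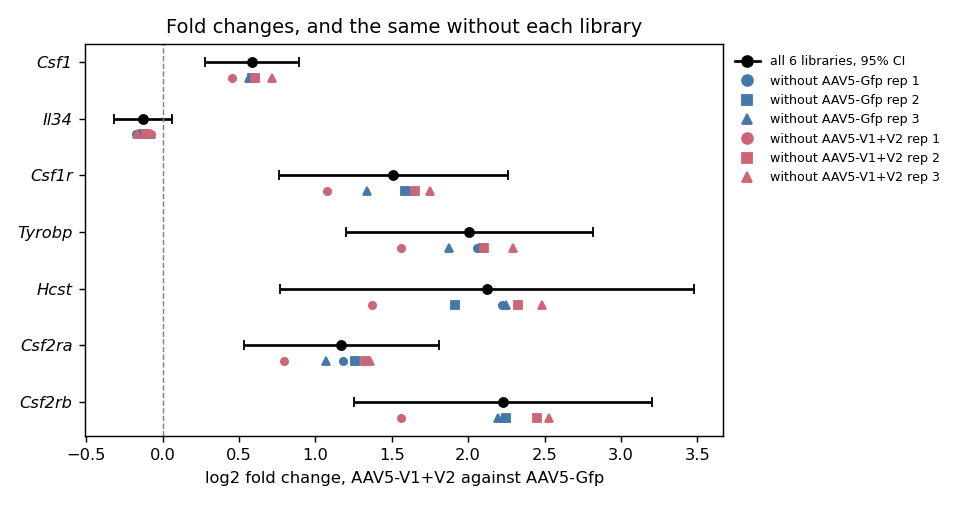
Log2 fold change of each member, AAV5-*V1+V2* over AAV5-*Gfp* (black point and 95% confidence interval, all 6 libraries), and below it the value when each library in turn is left out (coloured symbols). Every value for 6 genes lies above 0, all values for *Il34* lie just below 0, and the lowest value of each of the 6 comes without AAV5-*V1+V2* replicate 1.

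The direction of all 7 genes held when any library was left out, but the calls did not. Without AAV5-*Gfp* replicate 1, 2, or 3, 0 of the 7 genes passed by edgeR, whereas 6 had an unadjusted p under 0.05 each time. In those fits 1.35%, 0.0634%, and 0.0792% of all genes tested were higher, so that few genes of any kind passed. Without AAV5-*V1+V2* replicate 2, 3 genes passed (*Csf1r*, *Tyrobp* and *Csf2rb*), and *Csf1*, *Csf2ra* and *Hcst* had adjusted p-values of 0.0735, 0.0522, and 0.0752 by the same edgeR test. Without AAV5-*V1+V2* replicate 1, *Csf2rb* was 2.95-fold higher and *Hcst* 2.58-fold, with an adjusted p of 0.0575 for *Hcst* by the same edgeR test, and the other 5 raised genes passed. Limma-voom called 4 of the 7, without *Hcst* (adjusted p = 0.0808) and *Csf2ra* (0.0527).

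Levels can be compared between genes per length of exon. With AAV5-*Gfp*, *Il34* was the most abundant of the 7, at 18.2 ± 1.20 CPM per kb of exon (SD, n = 3). It was followed by *Tyrobp* (7.57 ± 1.28 CPM per kb), *Csf1r* (5.28 ± 1.19), *Csf1* (2.75 ± 0.0700), *Csf2ra* (1.64 ± 0.218), *Csf2rb* (1.03 ± 0.0381) and *Hcst* (0.342 ± 0.0886). The ranges of neighbours in this order did not overlap, although the lowest *Tyrobp* and the highest *Csf1r* library met at 6.10 CPM per kb. With AAV5-*V1+V2*, *Tyrobp* came first at 30.5 ± 14.9 CPM per kb (SD, n = 3), before *Il34* (16.6 ± 1.06), *Csf1r* (15.1 ± 6.94), *Csf2rb* (4.83 ± 3.13), *Csf1* (4.13 ± 0.735), *Csf2ra* (3.69 ± 1.48) and *Hcst* (1.501 ± 1.09). Here the ranges of *Tyrobp*, *Il34* and *Csf1r* overlapped from one neighbour to the next, as did those of *Csf2rb*, *Csf1* and *Csf2ra*. *Csf1* stood above both GM-CSF receptor chains in every library but AAV5-*V1+V2* replicate 1, where it stood below both. Exon lengths were those of GENCODE M21 and may differ from the gene models used for counting.

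Ratios within a library show whether the genes rose unequally. The log2 ratio of *Csf1* to *Csf1r* (CPM with a prior count of 2) was -1.24, -1.21, and -0.67 with AAV5-*Gfp*, against -2.36, -1.71, and -1.67 with AAV5-*V1+V2*. It was lower by 0.87 on average in AAV5-*V1+V2*, with no overlap (exact two-sided permutation p = 0.1, the lowest possible with 3 libraries in each group). The ratio of *Il34* to *Csf1r* decreased by 1.57 on the log2 scale (exact permutation p = 0.1). Both ligands thus were lower against their receptor in every AAV5-*V1+V2* library than in any control. The ratio of *Csf1* to *Il34* was -1.16, -1.28, and -1.42 in the controls and -0.25, -0.58, and -0.95 in AAV5-*V1+V2*, a difference of 0.70 (exact permutation p = 0.1). These p-values cannot pass 0.05 by design.

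Set against 14 macrophage markers averaged on the log2 scale, *Csf1r* was at 1.56, 1.65, and 1.23 with AAV5-*Gfp*, against 2.25, 1.60, and 1.67 with AAV5-*V1+V2*. The groups overlapped, and the difference of 0.36 was near the pooled SD of 0.30 (exact two-sided permutation p = 0.2). Without AAV5-*V1+V2* replicate 1 it was 0.15. *Tyrobp* against the same markers went from -1.12, -0.91, and -1.23 to 0.17, -0.36, and -0.62, without overlap (difference 0.81, exact permutation p = 0.1). The other ratios were chosen after the values were seen. *Csf2rb* rose more than *Csf2ra* by 0.94 on the log2 scale and more than *Csf1r* by 0.59 (exact permutation p = 0.1 for each). *Hcst* against *Tyrobp* differed by -0.20, less than the pooled SD of 0.42 (exact permutation p = 0.7), and its sign turned without AAV5-*Gfp* replicate 3 (0.05). With a prior count of 0.5 the difference was -0.04 (exact permutation p = 1).

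**Figure D3:**
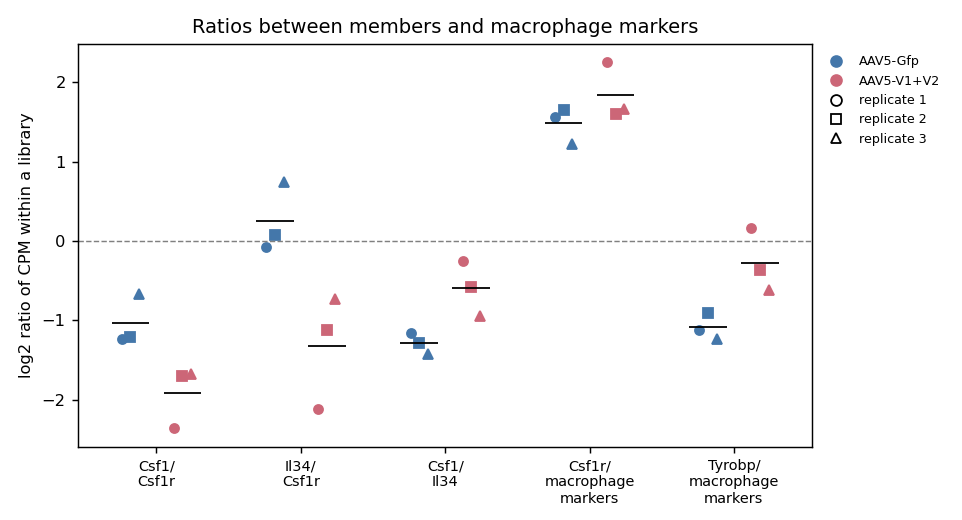
Log2 ratio of CPM within each library for pairs of genes, and for *Csf1r* and *Tyrobp* against the mean of 14 macrophage markers, with a symbol for each replicate and a line at the mean of each group (n = 3). Both ligands fall against *Csf1r* and *Tyrobp* rises against the markers without overlap, and the groups overlap for *Csf1r* against the markers.

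Around these genes, 7 lists of pathway genes held 49 genes, of which 45 were tested. Of these, 23 were higher and 0 were lower (adjusted p under 0.05, edgeR, against 10.1% and 5.27% of all genes tested), with a median log2 fold change of 1.42 against -0.0003 over all genes. Values did not overlap between groups for 39 of the 45 in the upward direction, against 23.4% of all genes tested. The count of higher genes fell to 2, 0, and 0 without AAV5-*Gfp* replicates 1, 2, and 3, and was 38 without AAV5-*V1+V2* replicate 3. The ligands and cytokines of the GM-CSF family were scarce. *Csf2*, which encodes GM-CSF, *Csf3*, which encodes G-CSF, and *Il3* had at most 2 reads in any library, so that a change in them was not detectable at this depth. *Il5* had 14, 12, and 9 reads with AAV5-*Gfp*, against 6, 5, and 8 reads with AAV5-*V1+V2*, and did not pass the filter for testing. *Csf2ra* and *Csf2rb* thus rose where *Csf2* was at the limit of detection in both groups.

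Among 4 related receptor chains, 2 were higher, against 10.1% of all genes tested. *Csf3r*, the G-CSF receptor, was 2.82-fold higher (adjusted p = 0.0376 by edgeR), like *Csf2rb2* above. *Il3ra*, the binding chain for IL-3, was at 1.12 on the log2 scale (SE 0.35) without passing (adjusted p = 0.0707 by the same edgeR test), and *Il5ra*, the chain for IL-5, at 0.46 (SE 0.30, adjusted p = 0.313). Of 14 relays that act below CSF1R or the adaptors, 11 were higher, against the same 10.1%, with a median log2 fold change of 1.71. *Lyn*, a Src family kinase of blood cells, rose by 1.67 (SE 0.28), and *Inpp5d*, the lipid phosphatase SHIP1, by 1.72 (SE 0.26). *Syk*, the kinase recruited by the motif of TYROBP, had the largest value of the list, 2.38 (SE 0.39), and *Ptpn6*, the phosphatase SHP-1, had 2.35 (SE 0.35). The relays used by most cell types had smaller values that did not pass, with 0.54 for the adaptor *Grb2*, 0.20 for the ubiquitin ligase *Cbl*, and 0.14 for *Src*.

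Of 6 relays of the GM-CSF receptor, 1 was higher, where 10.1% of all genes tested were higher. This was the transcription factor *Stat5a* (log2 fold change 0.64, SE 0.16, adjusted p = 0.0413 by edgeR). Its close relative *Stat5b* was at 0.19 and the kinase *Jak2* at 0.73, neither past the threshold (adjusted p = 0.256 and 0.0573 by the same edgeR test). Their feedback inhibitors *Socs1*, *Socs3* and *Cish*, at 1.86, 0.97, and 0.63, also fell just short, with adjusted p-values from 0.0517 to 0.0552.

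All 11 receptors that pair with the adaptors had higher counts in every AAV5-*V1+V2* library than in every control after normalization, as did 23.4% of all genes tested. Of the 11, 5 passed as higher, against 10.1% of all genes tested. *Klrk1*, the NKG2D receptor of NK and T cells that signals through HCST, had the largest log2 fold change (2.70, SE 0.44, adjusted p = 0.0159 by edgeR). *Siglech*, a TYROBP partner of plasmacytoid dendritic cells and microglia, was at 2.26 (SE 0.40). *Trem2*, a lipid-sensing partner of TYROBP, had 74, 87, and 35 reads in the controls and 189, 143, and 93 reads in AAV5-*V1+V2*, and did not pass (log2 fold change 1.10, SE 0.36, adjusted p = 0.0803 by the same edgeR test). Of the other receptors of IL-34, *Sdc1*, syndecan-1, which also marks plasma cells, was higher (0.65, SE 0.13, adjusted p = 0.0247), whereas *Ptprz1*, a receptor phosphatase of glia, was at -0.40 (SE 0.13, adjusted p = 0.0826).

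Of 8 myeloid transcription factors, 3 were higher, against 10.1% of all genes tested (log2 fold changes throughout). *Spi1* encodes PU.1, which drives *Csf1r* in macrophages, and had a log2 difference of 1.79 (SE 0.36, adjusted p = 0.0237 by edgeR). *Irf8* was at 2.56 (SE 0.39). *Runx1*, which nociceptors also express, and *Mitf* were at 0.69 and 0.66 without passing, and *Maf* was at 0.02.

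**Figure D4:**
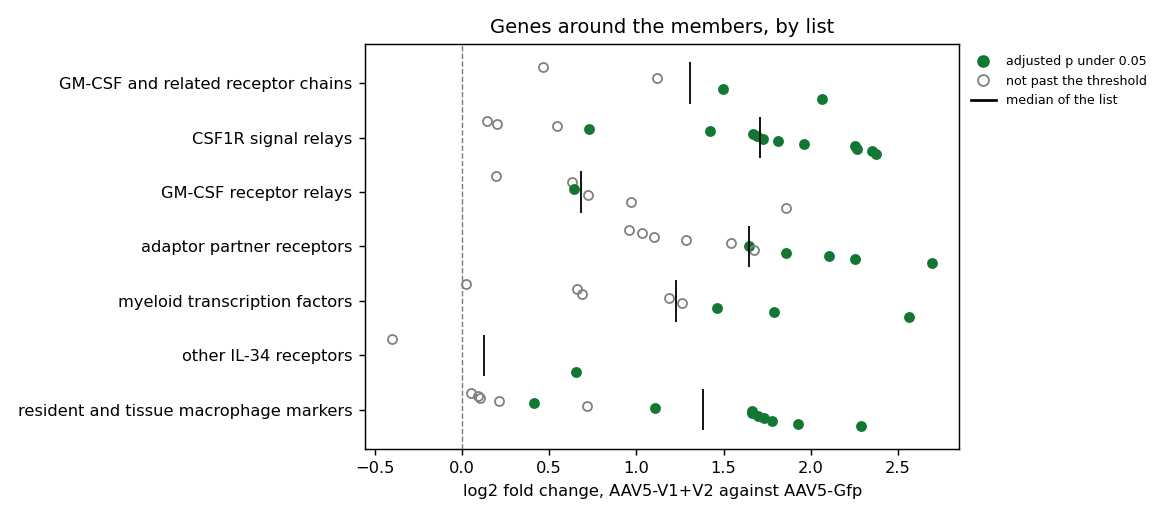
Log2 fold change, AAV5-*V1+V2* over AAV5-*Gfp*, for each tested gene (circles, filled where the adjusted p from edgeR is under 0.05) of 6 pathway lists and of the macrophage markers, with a line at the median of each list. Only *Ptprz1* lies below 0, and the macrophage markers range from 0.05 for *Cd163* to 2.29 for *Cd68*.

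PU.1, the product of *Spi1*, binds a short purine-rich sequence, the PU box, and promoters of members are shown with such letters marked. Whether PU.1 acts on the members was not tested. RefSeq promoters in GRCm38.p6 were on hand for 3 of the 7 genes, *Csf1*, *Hcst* and *Csf2ra*, all higher in AAV5-*V1+V2*. The 150 bases before the transcription start of RefSeq are given 5′ to 3′ on the strand of the gene, with capitals where the letters GAGGAA (PU box) or AGGAAG (the core of many sites of the ETS family, which includes PU.1) occur on either strand.
*Csf1* (chr3:107760470-107760619, minus strand): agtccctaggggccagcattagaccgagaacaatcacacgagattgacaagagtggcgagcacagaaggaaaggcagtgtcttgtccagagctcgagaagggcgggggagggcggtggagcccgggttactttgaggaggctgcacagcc
*Hcst* (chr7:30419855-30420004, minus strand): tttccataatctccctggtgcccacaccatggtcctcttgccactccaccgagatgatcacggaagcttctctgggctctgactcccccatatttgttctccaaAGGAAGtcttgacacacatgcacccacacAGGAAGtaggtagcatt
*Csf2ra* (chr19:61228419-61228568, minus strand): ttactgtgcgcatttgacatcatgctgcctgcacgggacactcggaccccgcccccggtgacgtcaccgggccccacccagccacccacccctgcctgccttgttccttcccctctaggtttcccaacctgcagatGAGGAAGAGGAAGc
*Csf2ra* held 2 copies of GAGGAA and 2 of AGGAAG, which overlap in 1 purine run at the end of the window. RefSeq starts *Csf2ra* further downstream than GENCODE M21, so that most of this run lies inside the gene as positioned above. *Hcst* held 2 copies of AGGAAG and *Csf1* held neither. Of 32851 promoter windows of this length, 14.5% held GAGGAA, 19.7% held AGGAAG, and 26.2% held either. These matches are thus a description of the letters and not of binding.

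Markers of several cell types moved with the members. The shares to set beside each marker list are those over all genes tested, 10.1% higher and 5.27% lower. Of 14 macrophage markers, 9 were higher and 0 lower (adjusted p under 0.05, edgeR, median log2 fold change 1.38), and their summed level was 272 to 289 CPM in AAV5-*Gfp* and 396 to 570 CPM in AAV5-*V1+V2*. The markers did not move alike. The lysosomal *Cd68* was at 2.29 on the log2 scale (SE 0.42) and the complement gene *C1qa* at 1.93 (SE 0.26), both named after their values were seen. Smaller values were seen for other markers, with 0.41 for the mannose receptor *Mrc1* (SE 0.09, adjusted p = 0.0286 by edgeR), which passed. The values of 0.05 for *Cd163*, 0.09 for *Lyve1*, and 0.21 for *Mertk* did not pass (adjusted p from 0.544 to 0.808 by the same edgeR test). *Cx3cr1*, the fractalkine receptor, was at 0.71 (adjusted p = 0.0525). The increase in *Csf1r* thus lay between these markers and *Cd68*.

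*Tyrobp* and *Hcst* are also expressed by NK cells and *Hcst* by T cells. Of 7 NK cell markers tested, 5 were higher (median log2 fold change 2.44, summed level 1.85 to 3.66 CPM in AAV5-*Gfp* and 7.64 to 19.6 CPM in AAV5-*V1+V2*), among them *Klrd1* (2.44, SE 0.55) and *Nkg7* (2.66, SE 0.64). *Ncr1* was also higher (1.76, SE 0.41), and *Klrb1c* did not pass (1.79, SE 0.57, adjusted p = 0.0731 by edgeR). *Gzmb* had 0 reads in AAV5-*Gfp* replicates 1 and 2, and *Eomes* had 0 in replicate 2. Of 8 T cell markers, 7 were higher (median 3.35, summed level 4.36 to 11.1 CPM against 41.4 to 90.4 CPM). *Csf2rb* and *Csf3r* are also expressed by granulocytes. Of 8 neutrophil markers, 1 was higher, *Camp* (0.92, SE 0.25), with a list median of 0.84 and a summed level of 105 to 119 CPM against 146 to 290 CPM. For each of these lists, the share over all genes tested was 10.1% higher. The groups did not overlap for 6 of the 8 neutrophil markers in the upward direction, against 23.4% of all genes tested. The part of these cells in the members' values was not tested.

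*Csf1* and *Il34* are the members with a known source in neurons. Of 12 sensory neuron markers, 0 were higher and 1 was lower, the nuclear protein gene *Rbfox3* (log2 fold change -0.93, SE 0.19, adjusted p = 0.0256 by edgeR). The log2 fold changes of these markers were all below 0, from -0.93 to -0.20, with a median of -0.31. Their summed level was 10158 to 10904 CPM in AAV5-*Gfp* and 6599 to 9546 CPM in AAV5-*V1+V2*. Each of these markers was lowest in AAV5-*V1+V2* replicate 1, where every raised member was highest. Whether this bears on the members' values was not tested. Of 12 genes that sensory neurons change after nerve injury, 2 were higher, the transcription factor *Atf3* (0.78, SE 0.17, adjusted p = 0.0269) and the protease gene *Ecel1* (1.07, SE 0.28, adjusted p = 0.0432), and 1 was lower, the calcium channel subunit *Cacna2d1* (-0.50, SE 0.12, adjusted p = 0.0361). For both lists, the shares over all genes tested were 10.1% higher and 5.27% lower, and the median of the nerve injury list was 0.08. *Atf3* had 435, 418, and 413 reads with AAV5-*Gfp*, against 812, 850, and 567 reads with AAV5-*V1+V2*. Other genes of this list did not pass, with 0.69 for *Sprr1a*, 0.43 for *Gal*, 0.14 for *Jun*, and -0.26 for *Gap43*. All 3 AAV5-*V1+V2* libraries were above the controls for *Csf1* and for *Atf3*, as for 23.4% of all genes tested. Replicate 3 was the lowest of them for both, as for every raised member. *Csf1* was highest in replicate 1 and *Atf3* in replicate 2. Whether *Csf1* rose in neurons was not tested.

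Fibroblasts and endothelial cells also can make CSF1. Of 6 fibroblast markers, 2 were higher, the collagens *Col1a2* (log2 fold change 0.84, SE 0.22) and *Col3a1* (0.90, SE 0.14), and *Dcn* was at 0.22. *Col1a1* had the largest value of the list, 1.18 (SE 0.34), without passing (adjusted p = 0.0549 by edgeR). The groups did not overlap for 4 of the 6 in the upward direction, against 23.4% of all genes tested. Of all genes tested, 10.1% were called higher and 5.27% lower. Of 6 endothelial markers, *Pecam1* was higher (0.88, SE 0.19), *Flt1* was lower (-0.42, SE 0.10), and 4 did not pass. Satellite glia markers (0 of 6 called, median -0.16) and Schwann cell markers (0 of 7 called, median 0.16) did not pass in either direction. The contribution of each cell type to *Csf1* was not tested.

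The genes whose log2 CPM followed each of 3 members most closely over the 6 libraries were ranked among 14563 genes by Pearson's r. Because the libraries form 2 groups, such values reflect both the difference between them and the spread within them, and the groups overlapped for *Il34*. For *Csf1* they were *Arhgap27*, *Ccrl2*, *Sik1*, *D16Ertd472e* and *Ifngr2* (r from 0.998 to 0.999), all higher in AAV5-*V1+V2*, with log2 fold changes from 0.38 for *Ifngr2*, a chain of the interferon gamma receptor, to 2.48 for *Ccrl2*, a chemokine-binding receptor. For *Csf1r* they were *Snx5*, *Usp18*, *Clcf1*, *Clec7a* and *AI987944* (r from 0.998 to 0.999). *Clec7a*, the beta-glucan receptor of myeloid cells, had a log2 difference of 2.34, and *Usp18*, an interferon-induced protease, of 1.20. *AI987944* did not pass (adjusted p = 0.0935 by edgeR). For *Il34* they were *2900055J20Rik*, *Myadm*, *Zfp946*, *Adamts17* and *Gm13403* (r from 0.987 to 0.995), none of which passed.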

How the data were processed

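RNA was sequenced from microinjected DRGs, 3 libraries per group. The deposited table holds unnormalized read counts by gene symbol, made by the authors from stranded total RNA libraries. The submitters' processing notes name GRCm38 and mm10. The aligner, the counting program, its strand setting and the annotation are not given in the sources used here, and strand and shared reads could affect neighbouring or similar genes.

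The tests ran under R 4.3.3, with the main one from edgeR 4.0.16 (filterByExpr, TMM, glmQLFit and glmQLFTest, no covariate), with Benjamini-Hochberg adjustment over all genes tested and a threshold of 0.05. The standard error is the absolute coefficient over the square root of F. Log2 CPM used a prior count of 2. Replicates differed by more than sampling noise (chi-square per degree of freedom from 8.27 to 48.9). Ratios were compared with an exact permutation test over 20 assignments. The code was tested on simulated counts. Coordinates and exon lengths are from GENCODE M21 (GRCm38), and promoters from RefSeq. DESeq2 1.42.0, limma-voom (limma 3.58.1), other normalizations, no filter, a replicate block and leaving out each library were the alternatives.

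The members and gene lists were chosen with earlier results of these data known. Beside the members, the text names the 4 most abundant tested genes of a list, chosen regardless of change, and the 5 genes most like *Csf1*, *Il34* and *Csf1r* in pattern. Other listed genes in the text were chosen after their values were seen. Same-numbered libraries of both groups had correlations of 0.036, 0.066, and 0.107 in their deviations from the group means, and were not treated as pairs. Some listed genes are not reported here by name.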

Additional observations from a re-analysis of the deposited data

How the results depend on the processing

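*Il34* kept its direction and did not pass in any of 12 alternatives, with log2 fold changes from -0.17 to -0.07. The other 6 genes kept their direction in every alternative. Leaving out each replicate in turn gave 0 to 6 higher members and log2 fold changes of 0.45 to 0.72 for *Csf1*, 1.07 to 1.75 for *Csf1r*, 1.56 to 2.30 for *Tyrobp*, 1.37 to 2.48 for *Hcst*, 0.80 to 1.36 for *Csf2ra*, and 1.56 to 2.53 for *Csf2rb*. Their adjusted p-values from edgeR reached 0.152 at most (*Hcst*). The same settings gave 0 to 38 higher and 0 to 1 lower pathway genes. In limma-voom, *Hcst* (1.86) and *Csf2ra* (1.10) lost the call, and the cause was not tested. DESeq2 called 37 pathway genes higher, against 23, and 1 lower, *Ptprz1*. When edgeR's test took the replicate as a block, 31 pathway genes were higher and 1 was lower, again *Ptprz1*, and the block changed no call of a member. Of 6 libraries, 5 correlated best with their own number, but the correlations were 0.107 at most. No chance level was computed, so that this count cannot decide whether the libraries were paired. The 5 ratios fixed in the design kept their direction with a prior count of 0.5 and without each library. Depth limits *Hcst*, *Csf2*, *Csf3*, *Il3* and *Il5*, all at 14 reads or fewer in the controls.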
